A study of Homo sapiens with 11 samples.

Results

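The synaptic vesicle and exocytosis genes described here are the genes named SYT, VAMP, STX, STXBP or CPLX with a number, together with the synapsins, the SV2 proteins, SNAP25, SNAP91, SYP, RAB3A, RAB3B, RAB3C, UNC13A and the RIMS genes. They were chosen by gene symbol from the array annotation, by a rule that uses no signals, though earlier results of these data were known. The rule found 159 of 54675 probe sets, which stand for 68 of 19775 genes. Of these 68 genes, 63 are protein coding and 5 are long non-coding RNAs whose symbols carry a member's name (STX17-DT, STX18-AS1, STXBP5-AS1, SYT15-AS1 and SYT9-AS1). The filter that left out the dimmest 40 percent of all genes, those with a mean signal under 14.8, kept 51 of the 68. The 17 genes below it were CPLX3, RIMS1, STX11, STX18-AS1, STX19, STXBP2, STXBP5-AS1, STXBP6, SYN3, SYT12, SYT3, SYT5, SYT8, SYT9, SYT9-AS1, VAMP5 and VAMP8, and they were not tested.

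A neuron releases transmitter when vesicles that carry a SNARE protein of the VAMP family fuse with a plasma membrane that carries SNARE proteins of the syntaxin family and SNAP25. Synaptotagmins sense the calcium that triggers fusion, complexins clamp and assist the SNARE complex, and RAB3, RIMS and UNC13 proteins tether and prime vesicles at the active zone. Neuroblastoma arises from precursors of sympathetic neurons, cells that also store catecholamines in dense-core granules, and other syntaxins and VAMP proteins serve traffic between the Golgi apparatus, endosomes and lysosomes in all cells.

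The cells were IMR32, an established human neuroblastoma line with amplified MYCN. Cells had received pLenti virus with a short hairpin RNA directed at MYCN (TRCN0000020696), or pLenti virus with the control hairpin SHC002, or no virus. Each of 24, 48 and 72 hours had 2 arrays labelled shMYCN, called A and B, and 1 control virus array, and 2 arrays without virus stood for 0 hours. Whether arrays A and B, or the pair without virus, were grown apart is not stated in the labels, so the p-values reflect array-to-array spread that may be technical.

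Values are deposited array signals on a linear scale, with a trimmed mean of 100 on each of the 11 arrays and medians from 14.9 to 16.7. Log2 differences are of log2(signal + 16), with the standard error of the limma fit, and a gene passed at an adjusted p under 0.05 over the 11865 genes tested. Replicate arrays differed with an SD of 0.172 to 0.271 on the log2 scale, and the 48 hour pair labelled shMYCN had the largest SD. MYCN mRNA, the target of the hairpin, did not pass as lower in the arrays labelled shMYCN. Its brightest probe set gave -0.02 ± 0.09 (SE) against control virus over the 3 hours (adjusted p = 0.924), and none of its 10 probe sets passed. Noradrenergic neuroblastoma markers were present, 6 of 7 above the filter, with a summed signal of 4966 to 5927 in the arrays labelled shMYCN and 5243 to 6042 in the other arrays. DBH, the enzyme that makes noradrenaline, was the 1 of these 6 to pass, with -0.47 ± 0.08 (adjusted p = 0.000947) over the 3 hours. GATA3, with 2873.3 to 3498.5 over the 11 arrays, made up most of each noradrenergic sum, so the sums show little of the dimmer markers. Of 5 Schwann and glial markers none lay above the filter, with sums of 19.2 to 49 against 17.4 to 37.4. Of 6 leukocyte markers 2 did, CD79A and FCER1G, neither of which passed, with sums of 40.3 to 54 against 40.7 to 54. In such bulk samples fewer cells of a type and less RNA per cell cannot be told apart.

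Promoters of 4 members, chosen after their values were seen, are printed first, because MYCN and its partner MAX are known to bind the E-box letters CACGTG and, less tightly, CATGTG. SYT4 had the largest rise, STX6 the largest fall, UNC13A is a priming factor that rose, though less than VAMP4 and STX3, whose promoters hold neither motif, and SYN2 had the largest fall of any single member probe set. Each runs 5′ to 3′ on the gene's strand from 250 bases before to 50 after the annotated start, from RefSeq on GRCh38.p14, and capitals mark an E-box. The STX6 promoter (chr1:181022821-181023120, minus strand) holds CACGTG 145 bases before the start, and UNC13A (chr19:17688305-17688604, minus strand) holds it 224 bases before. SYT4 (chr18:43277441-43277740, minus strand) holds CATGTG 154 bases before the start. SYN2 (chr3:12004138-12004437, plus strand) holds neither.
SYT4: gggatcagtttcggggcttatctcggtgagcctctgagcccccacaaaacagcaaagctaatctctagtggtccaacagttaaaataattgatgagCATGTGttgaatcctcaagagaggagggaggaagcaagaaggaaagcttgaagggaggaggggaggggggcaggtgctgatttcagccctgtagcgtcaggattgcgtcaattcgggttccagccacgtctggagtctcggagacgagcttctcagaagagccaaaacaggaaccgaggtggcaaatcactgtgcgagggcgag
UNC13A: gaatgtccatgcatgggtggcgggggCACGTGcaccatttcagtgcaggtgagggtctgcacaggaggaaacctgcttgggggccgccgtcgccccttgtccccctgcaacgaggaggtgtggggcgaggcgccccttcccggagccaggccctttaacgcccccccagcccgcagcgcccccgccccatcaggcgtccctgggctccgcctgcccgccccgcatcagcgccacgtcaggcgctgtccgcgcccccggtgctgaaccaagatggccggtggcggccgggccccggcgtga
STX6: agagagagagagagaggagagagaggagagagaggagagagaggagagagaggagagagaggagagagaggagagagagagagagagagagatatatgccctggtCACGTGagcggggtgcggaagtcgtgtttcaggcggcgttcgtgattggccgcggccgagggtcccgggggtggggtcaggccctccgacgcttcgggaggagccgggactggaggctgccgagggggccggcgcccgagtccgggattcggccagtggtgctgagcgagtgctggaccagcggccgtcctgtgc
SYN2: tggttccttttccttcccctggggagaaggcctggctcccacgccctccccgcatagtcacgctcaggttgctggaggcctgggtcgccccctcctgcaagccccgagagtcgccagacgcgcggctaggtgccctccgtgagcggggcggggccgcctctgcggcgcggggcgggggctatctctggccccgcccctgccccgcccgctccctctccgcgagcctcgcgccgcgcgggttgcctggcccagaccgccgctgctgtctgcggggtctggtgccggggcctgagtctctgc

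Of the 68 members, 54 had a promoter in the RefSeq table. Both strands were searched, CATGTG also as its reverse complement CACATG, and the motifs cannot overlap each other. CACGTG lay in 7 of 54 member promoters (13.0 percent), against 1034 of 9698 promoters of tested genes (10.7 percent) and 2030 of all 27305 (7.43 percent). CATGTG lay in 4 of 54 (7.41 percent), against 622 of 9698 (6.41 percent) and 3065 of 27305 (11.2 percent). Besides the 3 shown, members with either motif were CPLX3, RAB3A, STX10, STX2, STXBP2, SYT14, SYT6 and VAMP2. These matches describe letters in a window and say nothing of binding.

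Over the mean of 24, 48 and 72 hours, 17 of the 51 tested members passed against control virus, 13 higher and 4 lower. That was 33.3 percent of the members, against 37.9 percent of all tested genes (22.2 percent higher and 15.8 percent lower), so the share of members called was close to the background. The members' median log2 difference was 0.10, against 0.04 for all tested genes, and by its brightest probe set no member reached 2-fold in this mean. The members that rose were SYT4, SYT13, VAMP4, STX3, UNC13A, RAB3A, VAMP2, RIMS2, SYT6, SYT11, VAMP7, SYT1 and SYT14. Those that fell were STX6, VAMP3, STX16 and CPLX1. The mean over 3 hours rests on single control arrays, and without the 72 hour control array, when it covers 24 and 48 hours alone, 7 members passed: SYT4, SYT13, VAMP4, STX3, RAB3A, STX16 and STX6. The share of all genes that passed in that fit is not given here, so a loss particular to the members cannot be read from this count.

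**Figure D1:**
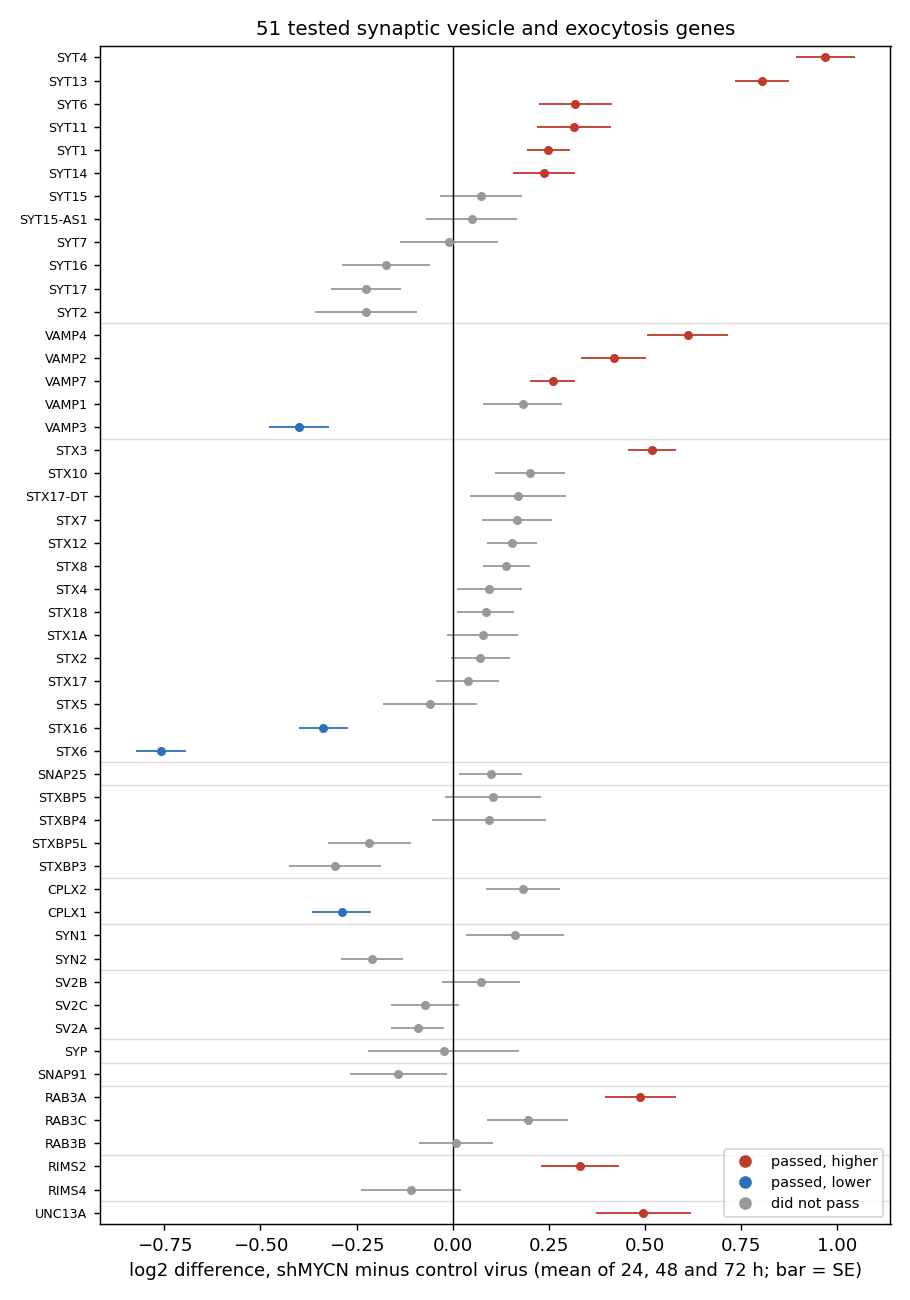
Log2 difference, arrays labelled shMYCN minus control virus, mean of 24, 48 and 72 hours, for the 51 tested members grouped by family; bars are the standard error of the fit, red passed higher, blue passed lower, grey did not pass. SYT4 at 0.97 and SYT13 at 0.80 lie farthest right, STX6 at -0.76 farthest left, and 34 of the 51 genes are grey.

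The synaptotagmins, proteins of vesicle and other membranes of which many bind calcium, were the family with most calls and among the largest. For its size the VAMP family had more, with 3 rises and 1 fall among 5. Of 11 tested synaptotagmin genes, 6 rose over the 3 hours and none fell by the brightest probe set. Of all tested genes, 22.2 percent rose and 15.8 percent fell in that comparison. SYT4, a synaptotagmin of dense-core granules and other organelles with weak calcium binding, had signals of 274 and 288 at 24 hours, 409 and 519 at 48 hours, and at 72 hours 767 and 824 in the arrays labelled shMYCN. Its control virus arrays gave 212, 225 and 263 at these hours, and those without virus 219 and 217. All 6 arrays labelled shMYCN lay above the other 5, and the distance widened with each hour. The difference was 0.97 ± 0.08 (adjusted p = 3.62e-06) over the 3 hours and 1.54 ± 0.13 (adjusted p = 1.02e-05) at 72 hours, where it was 2.91-fold. At 24 hours it was 0.38 ± 0.13 (adjusted p = 0.287) and did not pass.

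SYT13, an atypical synaptotagmin thought not to bind calcium, gave 159.8 and 148 at 24 hours, 293 and 269.8 at 48 hours, and at 72 hours 343 and 309.6 in the arrays labelled shMYCN. The control virus arrays of these hours had 137, 128 and 132, and the arrays without virus 132 and 126. Again all 6 stood above the other 5, with the 24 hour pair close to them and the later pairs far above. The difference was 0.80 ± 0.07 (adjusted p = 7.88e-06) over the 3 hours and 1.21 ± 0.12 (adjusted p = 3.13e-05) at 72 hours (2.31-fold). A dimmer SYT13 probe set had 14.3 to 49.8 in the arrays labelled shMYCN against 15.1 to 25 in the others. These ranges overlapped, and it did not pass over the 3 hours. By the brightest probe set of each gene, SYT4 and SYT13 were the only members at or above 2-fold at 72 hours. Their change of difference from 24 to 72 hours itself passed, with 1.16 ± 0.19 (adjusted p = 0.00381) for SYT4 and 1.05 ± 0.17 (adjusted p = 0.00409) for SYT13.

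SYT1, the fast calcium sensor of synaptic vesicles, had signals of 1461 and 1480.0 at 24 hours, 1686 and 1648 at 48 hours, and at 72 hours 1998 and 1836 in the arrays labelled shMYCN. Signals were 1425, 1392 and 1403 with control virus at these hours, and 1437 and 1366 without virus. On this brightest probe set the groups did not overlap, though the 24 hour pair lay just above the highest other array. On the other SYT1 probe set they overlapped, with 486 to 739 in the arrays labelled shMYCN against 524 to 555, and it did not pass over the 3 hours. SYT1 rose by 0.25 ± 0.06 (adjusted p = 0.00504) over the 3 hours and by 0.44 ± 0.10 (adjusted p = 0.00478) at 72 hours. SYT11, which does not bind calcium and restrains membrane traffic, had 345 and 352 at 24 hours, 328 and 475 at 48 hours, and at 72 hours 506 and 539 in the arrays labelled shMYCN. With control virus it gave 340.3, 339.7 and 314 at these hours, and without virus 354 and 333. Only the 72 hour pair and 48 hour array B lay above the other arrays. SYT11 passed over the 3 hours (0.32 ± 0.10, adjusted p = 0.0224) and at 72 hours (0.71 ± 0.17, adjusted p = 0.00689), and a further probe set of it gave 0.42 ± 0.06 (adjusted p = 0.000498) over the 3 hours. On the brightest probe set, the call over the 3 hours was lost in 2 of 11 alternative settings. It was also lost in 3 of 11 fits with 1 array left out, where the difference ran from 0.12 to 0.46.

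SYT6, a synaptotagmin known from vesicle fusion in sperm as well as neurons, rose over the 3 hours (0.32 ± 0.09, adjusted p = 0.0202) and at 72 hours (0.74 ± 0.16, adjusted p = 0.00489). Its signals were 31.8 and 27.9 at 24 hours, 41.3 and 47.3 at 48 hours, and at 72 hours 58.1 and 59.7 in the arrays labelled shMYCN. It read 26.3, 40.1 and 28.8 with control virus in order of hour, and 30.8 and 30.5 without virus. The 72 hour pair stood clear of every other array, while the 48 hour control lay close to array A of that hour. SYT14 rose over the 3 hours (0.24 ± 0.08, adjusted p = 0.0352) but gave 0.33 at 72 hours, which did not pass (adjusted p = 0.0894). Its call over the 3 hours was lost in 3 of 10 alternative settings and in 7 of 11 fits with 1 array left out (adjusted p up to 0.211). The other tested synaptotagmins, SYT2, SYT7, SYT15, SYT16 and SYT17, had differences between -0.23 and 0.07 over the 3 hours and did not pass. A dimmer probe set of SYT17 did, and fell by 0.41 ± 0.11 (adjusted p = 0.0123).

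**Figure D2:**
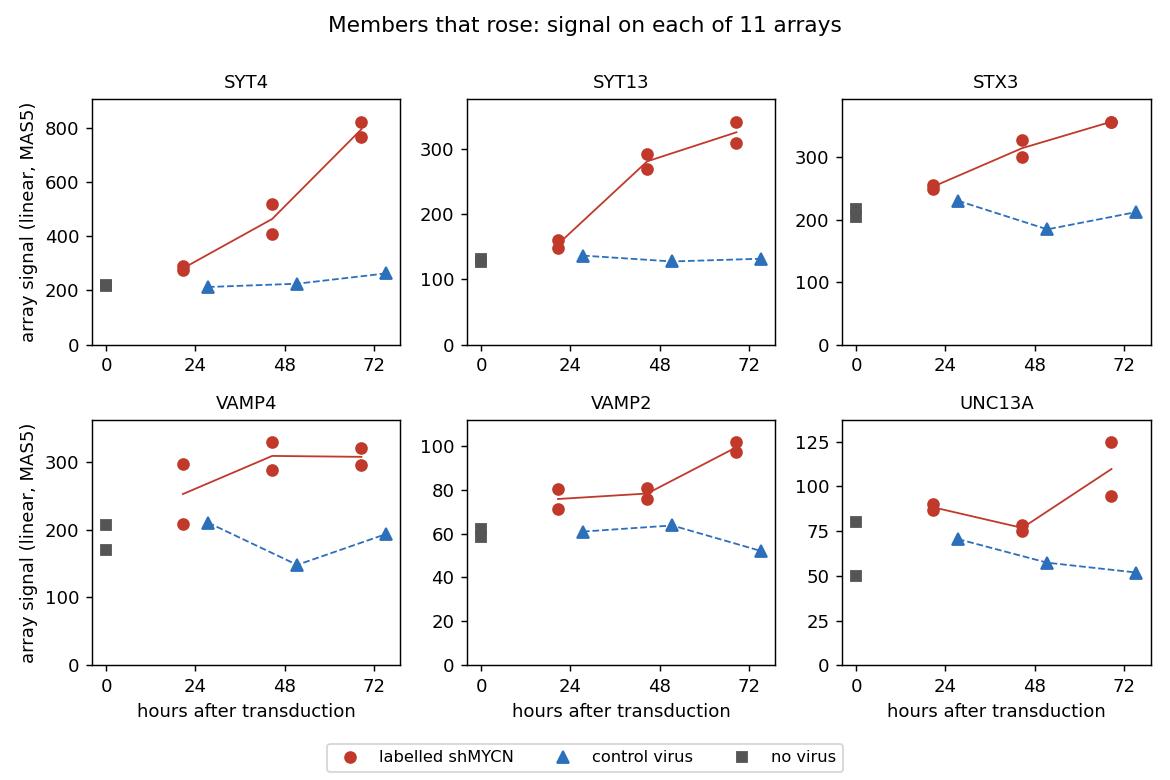
Signal on a linear scale against hours after transduction on each of the 11 arrays for SYT4, SYT13, STX3, VAMP4, VAMP2 and UNC13A; red circles are arrays labelled shMYCN with a line through their means, blue triangles control virus and grey squares no virus, and points of the same hour are set side by side. In SYT4 the arrays labelled shMYCN climb from hour to hour while control virus stays between 212 and 263.

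Among the vesicle SNARE proteins, 3 of 5 tested VAMP genes rose and 1 fell, beside 22.2 and 15.8 percent of all tested genes. VAMP2, the main SNARE protein of synaptic vesicles, had signals of 71.1 and 80.4 at 24 hours, 75.9 and 80.6 at 48 hours, and at 72 hours 97.1 and 102 in the arrays labelled shMYCN. Under control virus the signals were 60.9, 63.7 and 52.0 in order of hour, and without virus they were 61.9 and 58.4. All 6 lay above the other 5, the 72 hour pair most of all. Its difference was 0.42 ± 0.08 (adjusted p = 0.00239) over the 3 hours and 0.76 ± 0.15 (adjusted p = 0.00208) at 72 hours.

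VAMP4, a SNARE protein of the Golgi and endosomes, gave 208 and 297 at 24 hours, 329 and 289 at 48 hours, and at 72 hours 295 and 319.8 in the arrays labelled shMYCN. Its control virus arrays gave 210.4, 148 and 194 at these hours, and those without virus 170.3 and 206. The 24 hour pair was split, with array A inside the range of the other arrays, and the remaining 5 arrays lay above that range. VAMP4 rose by 0.61 ± 0.11 (adjusted p = 0.000902) over the 3 hours, and its 48 hour difference of 0.98 ± 0.18 (adjusted p = 0.00432) was taken against the lowest of the control arrays. VAMP7, which serves lysosomes and neurite outgrowth, had 803 and 816 at 24 hours, 1026 and 918 at 48 hours, and at 72 hours 1039 and 967 in the arrays labelled shMYCN. The control virus arrays of these hours had 785, 757 and 763, and the arrays without virus 805 and 797. Array A of 24 hours lay below 1 of the arrays without virus, and the 4 later arrays lay above every other array. VAMP7 rose by 0.26 ± 0.06 (adjusted p = 0.00467) over the 3 hours.

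VAMP3, the cellubrevin of recycling endosomes, fell. Its signals were 239 and 214 at 24 hours, 176 and 206 at 48 hours, and at 72 hours 158 and 166 in the arrays labelled shMYCN. Signals were 254, 249 and 269 with control virus at these hours, and 262 and 225 without virus. Array A of 24 hours lay within the range of the other arrays, and the remaining 5 lay below it. The difference was -0.40 ± 0.08 (adjusted p = 0.00203) over the 3 hours and -0.68 ± 0.14 (adjusted p = 0.00263) at 72 hours. VAMP1, the other vesicle SNARE protein of neurons, had 0.18 and did not pass (adjusted p = 0.184).

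The plasma membrane SNARE proteins divided by gene. STX3, a syntaxin of apical and sensory cell membranes that can pair with SNAP25, had signals of 256 and 249.8 at 24 hours, 301 and 328 at 48 hours, and at 72 hours 357 and 357 in the arrays labelled shMYCN. With control virus it gave 230.2, 184 and 212 at these hours, and without virus 217 and 205. No array labelled shMYCN reached down to the other arrays. STX3 rose by 0.52 ± 0.06 (adjusted p = 7.67e-05) over the 3 hours and by 0.71 ± 0.11 (adjusted p = 0.000467) at 72 hours. The change from 24 to 72 hours passed as well (0.58 ± 0.15, adjusted p = 0.0346), though it no longer did in 9 of the alternative settings, 6 of them with 1 array left out.

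STX1A and SNAP25, the partners of VAMP2 at the synapse, did not pass in any comparison with control virus. STX1A had 194 and 181 at 24 hours, 124 and 169 at 48 hours, and at 72 hours 128 and 139 in the arrays labelled shMYCN. It read 162, 142 and 132 with control virus in order of hour, and 156 and 166 without virus. The groups overlapped, and the difference was 0.08 ± 0.09 (adjusted p = 0.533). SNAP25 gave 254 and 293 at 24 hours, 325 and 269 at 48 hours, and at 72 hours 379 and 332 in the arrays labelled shMYCN. Under control virus the signals were 282, 238 and 344 in order of hour, and without virus they were 274 and 299. These ranges overlapped too (0.10 ± 0.08, adjusted p = 0.363). One dimmer SNAP25 probe set rose by 0.26 ± 0.09 (adjusted p = 0.0481), while its other dimmer one gave -0.09 and did not pass. STX2 and STX4, which serve the plasma membrane of many cells, had 0.07 and 0.10 and did not pass.

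Among the 9 syntaxins of internal membranes, 2 fell and none rose over the 3 hours, beside 15.8 and 22.2 percent of all tested genes. STX6, which acts in traffic between the Golgi and endosomes, had signals of 203 and 186 at 24 hours, 163 and 157 at 48 hours, and at 72 hours 171 and 167 in the arrays labelled shMYCN. Its control virus arrays gave 292, 298 and 327 at these hours, and those without virus 373 and 346. All 6 lay below the other 5, already at 24 hours, and the arrays without virus were the highest. The difference was -0.76 ± 0.06 (adjusted p = 6.41e-06) over the 3 hours and -0.89 ± 0.11 (adjusted p = 0.000133) at 72 hours. At 24 hours it was -0.55 ± 0.11 (adjusted p = 0.0554), just outside the threshold. Across all tested genes, 6.52 percent had all 6 arrays labelled shMYCN below the other 5 and 8.42 percent had all 6 above. Among the members, by the brightest probe set, STX6 was the 1 gene fully below, and STX3, SYT1, SYT13, SYT4 and VAMP2 were the 5 fully above. On dimmer probe sets VAMP3, STX16 and STX17 also lay fully below, and SYT11 fully above. The shares of 6.52 and 8.42 percent are for brightest probe sets alone, and none was computed for the dimmer ones.

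STX6 has 5 tested probe sets, and they did not move alike. The third in brightness fell by 0.66 ± 0.09 (adjusted p = 0.000269) over the 3 hours. The one next to the brightest gave -0.21 and the 2 dimmest gave 0.17 and 0.11, and these did not pass, and with the mean of all its probe sets STX6 no longer passed at 48 or 72 hours. STX16, a partner of STX6 in traffic to the trans-Golgi network, fell by 0.34 ± 0.06 (adjusted p = 0.0016). Its signals were 424 and 494 at 24 hours, 350.0 and 369 at 48 hours, and at 72 hours 396 and 405 in the arrays labelled shMYCN. The control virus arrays of these hours had 488, 519 and 537, and the arrays without virus 492 and 512. Array B at 24 hours lay within the range of the other arrays and the rest below it. STX12, an endosomal syntaxin, passed against control virus at 72 hours and at no other hour, with 0.32 ± 0.11 (adjusted p = 0.0424). That call was lost in 5 of 10 alternative settings and in 6 of 10 fits with 1 array left out (adjusted p up to 0.239).

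Of the SNARE regulators, complexin CPLX1 fell and CPLX2 did not pass. CPLX1 had signals of 173 and 189 at 24 hours, 113 and 130.4 at 48 hours, and at 72 hours 93.5 and 105 in the arrays labelled shMYCN. Signals were 202, 140.1 and 151 with control virus at these hours, and 212 and 212 without virus. Every array labelled shMYCN lay below the control virus array of its own hour, but all 3 control virus arrays also lay below both arrays without virus. The difference was -0.29 ± 0.08 (adjusted p = 0.0121) over the 3 hours and -0.54 ± 0.13 (adjusted p = 0.00945) at 72 hours. CPLX2 gave 296 and 292 at 24 hours, 204 and 290.3 at 48 hours, and at 72 hours 254 and 277 in the arrays labelled shMYCN. With control virus it gave 261, 219.6 and 221 at these hours, and without virus 280.3 and 249. Its groups overlapped (0.18 ± 0.10, adjusted p = 0.156). STXBP3, a Munc18 protein that binds syntaxins, had 168 and 233 at 24 hours, 217 and 153 at 48 hours, and at 72 hours 161 and 132 in the arrays labelled shMYCN. It read 227, 188 and 247 with control virus in order of hour, and 209.7 and 199.6 without virus. Its groups overlapped at 24 and 48 hours, and 132 at 72 hours was the lowest signal of all. STXBP3 passed as lower at 72 hours (-0.70 ± 0.21, adjusted p = 0.0226) and gave -0.31 over the 3 hours without passing. STXBP4, STXBP5 and STXBP5L gave differences from -0.22 to 0.10 over the 3 hours and did not pass.

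The synapsins coat synaptic vesicles and tie them into a reserve pool. SYN2 was represented by its brightest probe set, which gave -0.21 ± 0.08 (adjusted p = 0.0621) over the 3 hours, did not pass there, and passed at 72 hours with -0.40 ± 0.14 (adjusted p = 0.0443). That 72 hour call was lost in 3 of 10 alternative settings and in 6 of 10 fits with 1 array left out. In the fit of every probe set on its own, the adjusted p at 72 hours was 0.0555. The other 4 SYN2 probe sets all fell over the 3 hours in that fit, where 30.1 percent of all probe sets passed, and again at 72 hours, where 26 percent did. The most changed of them had signals of 303 and 280.0 at 24 hours, 134 and 139 at 48 hours, and at 72 hours 47.6 and 53.6 in the arrays labelled shMYCN. Under control virus the signals were 289, 291 and 262 in order of hour, and without virus they were 332 and 306. The 24 hour pair lay among the other arrays, the 48 hour pair below them and the 72 hour pair lower still. Its difference was -1.02 ± 0.07 (adjusted p = 1.63e-06) over the 3 hours and -2.06 ± 0.12 (adjusted p = 1.2e-06) at 72 hours, which is 4.17-fold lower. At 24 hours it was 0.01 ± 0.12 (adjusted p = 0.983), and the change from 24 to 72 hours passed (-2.07 ± 0.17, adjusted p = 0.000176), as it did for 6.42 percent of all probe sets.

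A second SYN2 probe set had 306 and 312 at 24 hours, 191 and 220.4 at 48 hours, and at 72 hours 101 and 109 in the arrays labelled shMYCN. Its control virus arrays gave 301, 296 and 248 at these hours, and those without virus 314 and 302. It too parted from the control virus arrays after 24 hours and differed by -1.13 ± 0.12 (adjusted p = 5.97e-05) at 72 hours. The remaining ones, both dimmer, gave -1.32 and -0.89 at 72 hours, with adjusted p of 0.000254 and 0.00926. On all 5 probe sets the 72 hour arrays were the lowest, but the size of the fall differed between them. Which SYN2 transcripts each probe set reads was not tested. SYN1 had 0.16 ± 0.13 (adjusted p = 0.343) over the 3 hours.

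**Figure D3:**
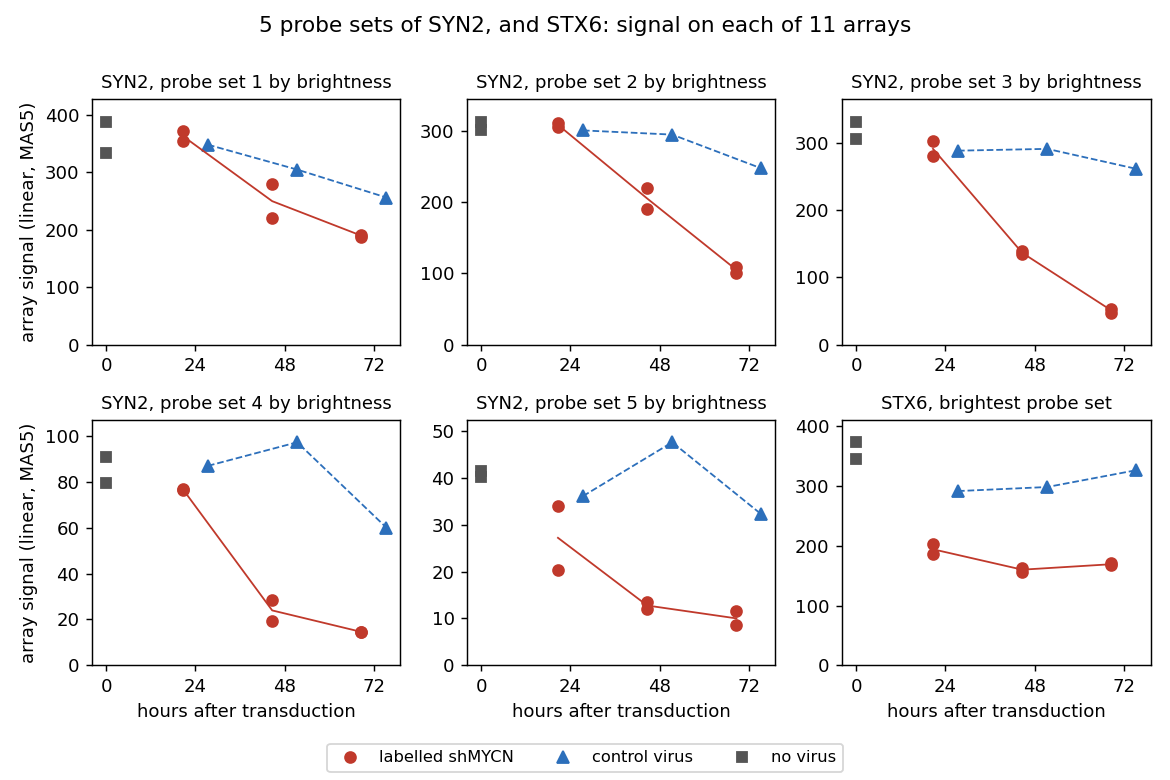
Signal on a linear scale against hours after transduction on each of the 11 arrays for the 5 SYN2 probe sets, ordered by brightness, and for STX6; red circles are arrays labelled shMYCN with a line through their means, blue triangles control virus and grey squares no virus. The third SYN2 panel, the most changed, ends near 50 in the arrays labelled shMYCN at 72 hours, and STX6 lies below control virus at every hour.

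The vesicle membrane and coat proteins held few calls. SV2A, a glycoprotein of all synaptic vesicles, had signals of 362 and 437 at 24 hours, 361 and 347 at 48 hours, and at 72 hours 271 and 278 in the arrays labelled shMYCN. The control virus arrays of these hours had 363, 339.5 and 383, and the arrays without virus 350.3 and 341. The 72 hour pair was the lowest of all arrays, while 24 hour array B was the highest. SV2A gave -0.09 ± 0.07 (adjusted p = 0.324) over the 3 hours and did not pass, fell by 0.46 ± 0.12 (adjusted p = 0.0118) at 72 hours, and its change from 24 to 72 hours was -0.58 ± 0.17 (adjusted p = 0.0481). That last call was lost in 9 of the alternative settings, 5 of them with 1 array left out. SV2B and SV2C had 0.07 and -0.07 over the 3 hours and did not pass.

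SYP, synaptophysin, a major membrane protein of synaptic vesicles, had 68.8 and 36.4 at 24 hours, 26.2 and 66.2 at 48 hours, and at 72 hours 51.6 and 50.9 in the arrays labelled shMYCN. Signals were 57.1, 55.3 and 37.2 with control virus at these hours, and 43.8 and 42.4 without virus. Replicate arrays of one hour differed here by as much as the groups did (-0.02 ± 0.20, adjusted p = 0.934). SNAP91, which helps clathrin rebuild vesicles after fusion, had -0.14 ± 0.13 (adjusted p = 0.406). Neither passed.

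The RAB3 and active zone genes held 3 rises and no fall among 6 tested, beside 22.2 and 15.8 percent of all tested genes. RAB3A, the main small GTPase of synaptic vesicles, had signals of 64.4 and 55.2 at 24 hours, 97.2 and 87.6 at 48 hours, and at 72 hours 84.2 and 70.3 in the arrays labelled shMYCN. With control virus it gave 60.5, 43.8 and 44.3 at these hours, and without virus 63.7 and 61.2. The 24 hour pair overlapped the other arrays and the 4 later arrays stood above them. RAB3A rose by 0.49 ± 0.09 (adjusted p = 0.00174) over the 3 hours and gave 0.86 ± 0.16 (adjusted p = 0.00479) at 48 hours. Against the arrays without virus, which were brighter than the later control virus arrays, it gave 0.22 and did not pass (adjusted p = 0.148).

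UNC13A, which primes docked vesicles, gave 86.6 and 90.0 at 24 hours, 75.0 and 78.5 at 48 hours, and at 72 hours 94.7 and 125 in the arrays labelled shMYCN. It read 70.5, 57.3 and 51.8 with control virus in order of hour, and 80.1 and 50.1 without virus. One of the arrays without virus lay within the range of the arrays labelled shMYCN, and the pair without virus was itself widely spread. The difference was 0.50 ± 0.12 (adjusted p = 0.0085) over the 3 hours and 0.88 ± 0.21 (adjusted p = 0.00849) at 72 hours. RIMS2, an active zone scaffold that binds RAB3, had 52.1 and 73.1 at 24 hours, 87.4 and 78.0 at 48 hours, and at 72 hours 105 and 102 in the arrays labelled shMYCN. Under control virus the signals were 59.2, 54.5 and 70.6 in order of hour, and without virus they were 64 and 57.6. The 4 later arrays labelled shMYCN and array B of 24 hours lay above the other arrays, and array A of 24 hours was the lowest of all. RIMS2 rose over the 3 hours (0.33 ± 0.10, adjusted p = 0.0243) and gave 0.46 ± 0.18 (adjusted p = 0.0663) at 72 hours, which did not pass. Its call over the 3 hours was lost in 2 of 10 alternative settings and in 4 of 11 fits with 1 array left out. RAB3C, a further RAB3 of neurons, had 51.7 and 44.6 at 24 hours, 54.2 and 62.3 at 48 hours, and at 72 hours 76.6 and 86.3 in the arrays labelled shMYCN. Its control virus arrays gave 53.9, 53.6 and 47.3 at these hours, and those without virus 46.7 and 33.9. It passed as higher at 72 hours (0.62 ± 0.18, adjusted p = 0.0218), where both arrays stood above all others. RAB3B had 0.01 with its brightest probe set and did not pass, while 1 of its dimmer probe sets fell by 0.35 ± 0.10 (adjusted p = 0.0262). RIMS1, the founding RIM scaffold of neuronal active zones, had signals from 1.9 to 13.4 over the 11 arrays and was too dim to be tested.

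By hour, no member passed at 24 hours, where 0.708 percent of all genes did. In limma, 2 members, SYT4 and STX6, had an unadjusted p under 0.05 there (3.92 percent of members, against 11.5 percent of all genes). Without array A or without array B of 48 hours, 2 members passed at 24 hours. At 48 hours 8 members passed, 6 higher and 2 lower, or 15.7 percent against 17 percent of all genes (10.1 percent higher and 6.9 percent lower). The 6 were SYT13, SYT4, VAMP4, RAB3A, STX3 and VAMP7, and the 2 were STX6 and STX16. At 72 hours 20 members passed, 13 higher and 7 lower, or 39.2 percent against 34 percent of all genes (18.3 percent higher and 15.7 percent lower). Without 72 hour array A, 12 members passed there. The test of the change itself, from 24 to 72 hours, passed for 4 members (SYT4, SYT13, STX3 and SV2A), or 7.84 percent against 10.3 percent of all genes. That count was 10 without array A or without array B of 48 hours, and 2 without either 72 hour array or either array without virus.

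**Figure D4:**
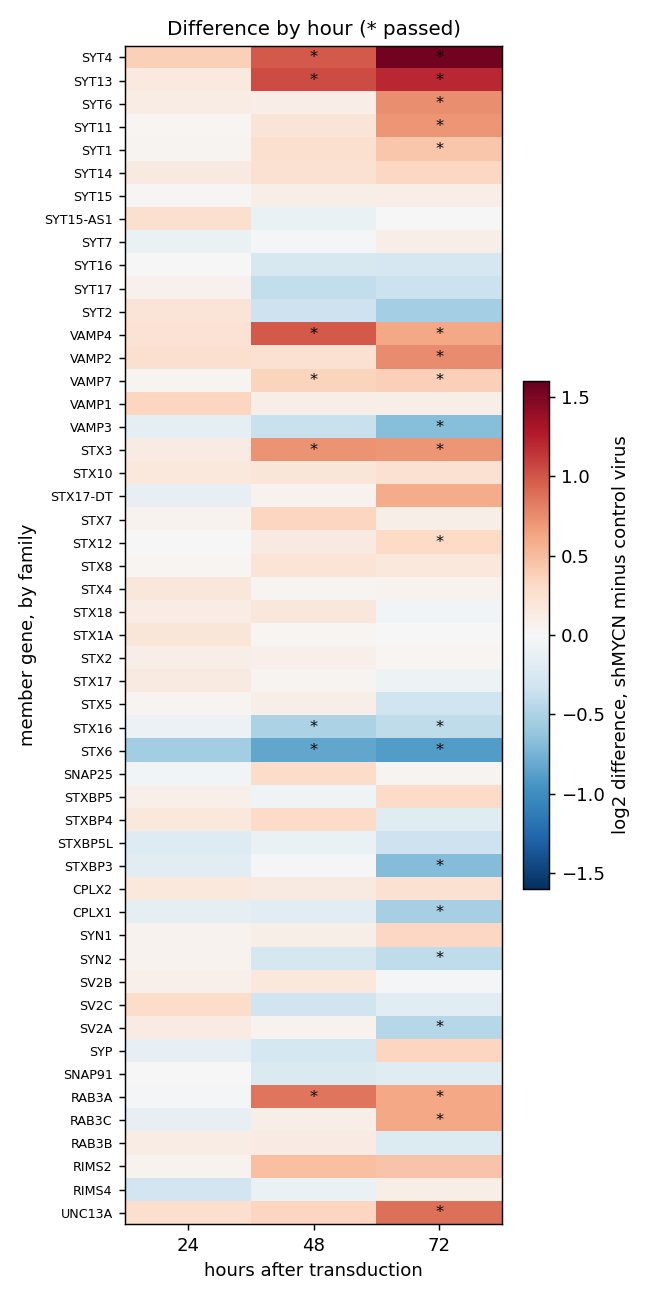
Log2 difference, arrays labelled shMYCN minus control virus, at 24, 48 and 72 hours after transduction (columns) for the 51 tested members (rows, by family); red is higher, blue is lower and an asterisk marks a gene that passed. The 24 hour column holds no asterisk, the 48 hour column 8 and the 72 hour column 20.

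Within the arrays labelled shMYCN, 22 members passed between 72 and 24 hours, 14 higher and 8 lower, or 43.1 percent against 36.4 percent of all genes (18.1 percent higher and 18.3 percent lower). This comparison shares its arrays with those above and has no control in it. The largest rises were SYT4 (1.45 ± 0.11), SYT13 (1.01 ± 0.10) and SYT6 (0.71 ± 0.13). Also higher, from 0.61 to 0.28, were RIMS2, RAB3C, SYT11, STX3, SV2B, SYT14, SYT1, SNAP25, VAMP2, VAMP7 and STX12. The largest falls were SYT17 (-1.04 ± 0.13), SYN2 (-0.88 ± 0.11) and CPLX1 (-0.77 ± 0.11). The other 5 falls, from -0.55 to -0.44, were SYT2, SV2A, VAMP3, STX1A and VAMP1. SYT17, a synaptotagmin of the Golgi and vesicle membranes, had signals of 79.5 and 70.9 at 24 hours, 31.3 and 34.8 at 48 hours, and at 72 hours 28.1 and 28.5 in the arrays labelled shMYCN. The control virus arrays of these hours had 71.2, 48.6 and 40.1, and the arrays without virus 76.1 and 72.7. The control virus arrays were also lower at 48 and 72 hours than at 24, and against them the brightest probe set of SYT17 did not pass (-0.23 ± 0.09, adjusted p = 0.069), while its dimmer one did. SNAP25 (0.36) and STX1A (-0.44) passed in this comparison in opposite directions, with adjusted p of 0.0292 and 0.0204. The count was 12 without array A of 24 hours, 12 without array A of 72 hours and 13 without array B of 72 hours.

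Against the arrays without virus, 18 members passed over the 3 hours, 12 higher and 6 lower, or 35.3 percent against 30.8 percent of all genes (17.7 percent higher and 13.1 percent lower). The largest rises were SYT4 (1.06 ± 0.09), SYT13 (0.83 ± 0.08) and VAMP4 (0.57 ± 0.12). STX6 (-0.98 ± 0.07), CPLX1 (-0.64 ± 0.09) and SYT17 (-0.63 ± 0.10) had the largest falls. Without array 1 of the no virus pair 10 passed, and without array 2 it was 8. Between control virus and no virus no member passed in limma, where 0.0337 percent of all genes did. There 6 members had an unadjusted p under 0.05 (11.8 percent, against 5.32 percent of all genes): STX6, SYN2, RAB3A, CPLX1, STX17-DT and SYT17. Their differences ran from -0.41 for SYT17 to -0.22 for STX6, and none passed after adjustment.

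Genes of the same pathway outside the members were taken from lists of known function. Over the 3 hours, 22.2 percent of all tested genes rose and 15.8 percent fell. Of 17 tested other genes of fusion and priming, 3 rose and 4 fell over the 3 hours. NSF, the ATPase that takes SNARE complexes apart, fell by 0.85 ± 0.06 (adjusted p = 1.55e-06), and RAB3D, a RAB3 of secretory granules, by 0.75 ± 0.10 (adjusted p = 0.000113). Of 15 active zone scaffolds, 6 rose and 2 fell. RIMBP2, which links RIMS proteins to calcium channels, had 0.72 ± 0.10 (adjusted p = 0.000167), and CASK, a scaffold that binds neurexins, had 0.47 ± 0.07 (adjusted p = 0.000259). Other vesicle proteins and transporters held 3 rises and no fall among 13, with SCAMP1 at 0.36 ± 0.05 (adjusted p = 0.000386) and SYNGR2 at 0.45 ± 0.09 (adjusted p = 0.00259).

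Vesicle endocytosis genes held 3 rises and 5 falls among 22, beside the same 22.2 and 15.8 percent of all tested genes. AP2M1, a subunit of the clathrin adaptor AP-2, fell by 0.76 ± 0.08 (adjusted p = 2.85e-05), and ITSN1, an endocytic scaffold, by 0.48 ± 0.07 (adjusted p = 0.000354). Of 9 dense-core granule cargo genes, 6 rose and 2 fell. CPE, which trims prohormones in the granule, had -1.22 ± 0.07 (adjusted p = 2.67e-07), and PAM, which amidates peptides there, had 0.52 ± 0.06 (adjusted p = 4.37e-05). Every list but that of vesicle proteins and transporters moved in both directions, as the members did.

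**Figure D5:**
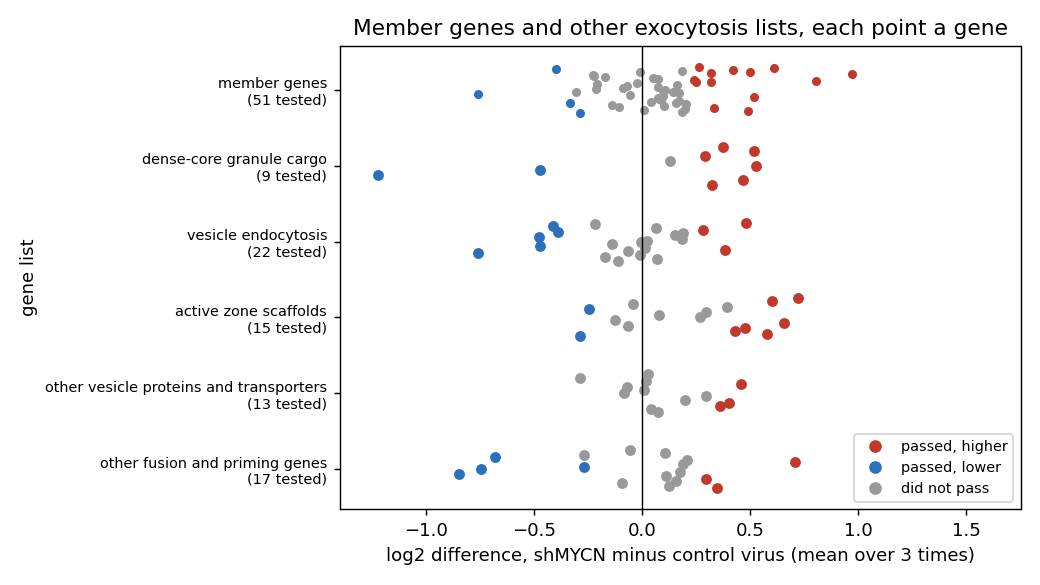
Log2 difference, arrays labelled shMYCN minus control virus, mean of 24, 48 and 72 hours, with each point a gene; the member genes are in the top row and 5 lists of other exocytosis genes below, red passed higher, blue passed lower and grey did not pass. CPE at -1.22 is the leftmost point and SYT4 at 0.97 the rightmost.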

How the data were processed

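RNA of 11 samples of the IMR32 line was hybridised to Affymetrix one-colour arrays. The authors deposited a linear signal intensity per probe set, and MAS5 and GCOS are named in the submitters' processing notes, without versions. From the values, every array was scaled to a mean of 100 over its middle 96 percent of probe sets, so a change in total RNA cannot be seen. Of 54675 probe sets, 41097 had 1 symbol in the platform annotation, 1801 several and 11777 none. For 41037 probe sets the current symbol was looked up through the Entrez number, which changed no member's symbol. A probe set named with _s_at or _x_at can match related transcripts. Each gene was read from the probe set that was brightest on average (log2 signal), and the dimmest 40 percent of genes were left out.

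Signals were analysed as log2(signal + 16), which understates folds of dim genes. The fit gave every one of 7 groups its own mean, in limma 3.58.1 (lmFit, contrasts.fit and a trended eBayes, R 4.3.3). Its degrees of freedom were 4 residual and 7.35 prior. The spread of a single control virus array was taken to be that of the 4 groups of 2. In each of 8 comparisons, two-sided p-values were adjusted over all tested genes by Benjamini and Hochberg's method, with a threshold of 0.05. The number of arrays limits the precision.

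The letters A and B were checked as pairs: differences of A minus B over all tested genes correlated at -0.0508, 0.0377 and 0.1 between hours. Such low values cannot show whether arrays of the same letter share a culture, which the labels do not state. The members, the gene lists and the alternatives were chosen with earlier results of these data known. Named genes are the 12 largest rises and falls in the mean comparison, the 3 largest per direction elsewhere, core synaptic genes whatever their values, the brightest of each family, members whose probe sets disagree, and up to 2 genes per list by smallest p. Alternatives were offsets of 1 and 64, quantile normalization, median scaling, a filter of 60 percent or none, other uses of probe sets, no trend, the letter as a block, an additive model and leaving out each array. Promoters came from RefSeq on GRCh38.p14; the build of the array annotation was not given in the sources used here. 2 probe sets with several symbols were not used.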

Additional observations from a re-analysis of the deposited data

Results flagged for a closer look

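The difference between arrays labelled shMYCN and control virus changed between 24 and 72 hours for 4 members, by a test of that change in limma. That was 7.84 percent of the tested members, against 10.3 percent of all tested genes. SYT4 changed by 1.16 ± 0.19 on the log2 scale (SE, adjusted p = 0.00381) and SYT13 by 1.05 ± 0.17 (adjusted p = 0.00409). STX3 changed by 0.58 ± 0.15 (adjusted p = 0.0346) and SV2A by -0.58 ± 0.17 (adjusted p = 0.0481). The STX3 call was lost in 3 of 10 alternative settings and in 6 of 9 fits with 1 array left out, and the SV2A call in 4 of 10 and 5 of 9.

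In the fit of each probe set on its own, where 6.42 percent of all probe sets passed this test, 4 further probe sets of members did. For SYN2 they changed by -2.07 ± 0.17 (adjusted p = 0.000176), -1.16 ± 0.17 (adjusted p = 0.00361) and -1.17 ± 0.25 (adjusted p = 0.0196). For SYT11 one changed by 0.63 ± 0.16 (adjusted p = 0.0376). Each of these tests rests on 1 control virus array at 24 hours and 1 at 72 hours. Groups of 2 arrays or 1 were too small to be examined for a single outlying array.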

How the results depend on the processing

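No member difference that passed changed sign under any alternative, with each gene followed by its brightest probe set or the mean of its probe sets. The filters, the fit without trend, the letter as a block and each probe set on its own keep that difference. They could not change its sign, nor could leaving out an array that a comparison does not use. Dimmer probe sets were not followed here, and 2 of the 5 tested for STX6 had the opposite sign over the 3 hours. Of the members that did not pass over the 3 hours, only the core genes CPLX2, SNAP25, SNAP91, STX1A, SV2A, SYN1 and SYP were followed. Among these, 3 changed sign with 1 array left out: SV2A ran from -0.20 to 0.093, SYP from -0.20 to 0.14 and SNAP25 from -0.00033 to 0.17. The signs of the other members that did not pass were not followed. Counts of members that moved by over 1.5 times were as follows. With a filter of 60 percent, which tests 26 members, 11 passed over the 3 hours (17 of 51 in the fit reported), 1 at 24 hours (0), 13 between 72 and 24 hours (22) and 11 against no virus (18). Median scaling gave 1 at 24 hours. With each probe set on its own 13 genes passed at 48 hours (8). The change from 24 to 72 hours gave 2 (4) with no filter and 2 without the variance trend. Leaving out 1 array at a time gave 7 to 23 over the 3 hours, 0 to 2 at 24 hours, 7 to 12 at 48 hours, 12 to 22 at 72 hours, 2 to 10 for the change, 12 to 23 between 72 and 24 hours, 8 to 21 against no virus and 0 to 0 between control virus and no virus. With the letter as a replicate block 18 passed over the 3 hours and 21 at 72 hours, but the labels do not say whether the letters pair the arrays. Median scaling split all genes over the 3 hours into 2062 higher and 2194 lower, against 2629 and 1871 as reported. At 72 hours it gave 1456 and 2508, against 2166 and 1868. Between 72 and 24 hours it gave 1531 and 2722, against 2149 and 2172, and against no virus 1498 and 1968, against 2095 and 1556. For the fits with 1 array left out or another filter, here and above, the share of all genes that passed is not given. Their counts therefore do not tell a loss or gain among members from one over all genes. Signals near the filter and the single control arrays limit all of these values.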
